A study of Mus musculus with 20 samples.

Results

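Complement components, regulators and a receptor that kidney stromal cells or their neighbours can express were read in bulk RNA-seq of cultured mouse renal myofibroblasts. The 9 genes (C1ra, C1s1, C4b, C2, Serping1, C3, Cfb, Cfp and C3ar1) were taken by name from a count table of 51826 genes. The 20 libraries formed 4 groups of 5: WT untreated, WT with TGFβ1, WWP2-/- untreated and WWP2-/- with TGFβ1. WWP2 is an E3 ubiquitin ligase, and the comparisons asked how its loss and TGFβ1, the main cytokine that activates myofibroblasts, changed these cells. All groups were C57BL/6J, and they differed by the loss of WWP2 (labelled KO) and by TGFβ1. The study's methods describe WWP2-/- and WT littermates bred from heterozygotes and cells that grew out of their minced kidney, used at passage 2 in medium with fetal bovine serum, and human TGFβ1 at 5 ng/μl. Cells with TGFβ1 were treated for 72 hours, a time taken from a legend on bulk RNA-seq of such cells and not from the labels, which also leave out the age and sex of the mice. The study's methods say in general that a data point in a figure is a mouse or the cells of one mouse, unless stated otherwise. The labels do not tie these libraries to mice, so the P values are read as the spread between libraries.

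Complement is a cascade of secreted proteases and their targets that marks surfaces for removal. In the classical pathway C1r activates C1s, C1s cleaves C4 and C2, and the fragments form an enzyme that cleaves C3, while the alternative pathway builds a similar enzyme from C3 and factor B. C1 inhibitor, encoded by Serping1, inactivates C1r and C1s. Fibroblasts are a known local source of the classical components and of C1 inhibitor in tissue, whereas properdin (Cfp) and the C3a receptor (C3ar1) are best known from myeloid cells.

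With TGFβ1 in the medium, C4b and Serping1 were the members that passed the test between genotypes, both lower in WWP2-/- than in WT myofibroblasts. C4b was 10-fold lower (log2 fold change -3.32, SE 0.846, adjusted P = 0.0290) and Serping1 9.79-fold lower (-3.29, SE 0.848, adjusted P = 0.0306) in edgeR's quasi-likelihood test over 20407 genes. In that comparison 6.07% of all genes tested passed, 3.96% with a lower level, beside 2 of 9 members. No member passed between genotypes without TGFβ1, where 0.725% of all genes did, nor between TGFβ1 and untreated cells in either genotype or in the interaction of both, where 0% of genes did. As these are bulk libraries, fewer cells of a type and less RNA per cell cannot be told apart in any of these values.

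Several libraries stood apart, and the members moved with them. Total counts ran from 47520759 to 73063697 per library, and Wwp2 itself lay at 46.7 to 61.6 CPM (counts scaled to the size of the library) in the 10 WT libraries and at 15.5 to 24.0 CPM in the 10 labelled KO, with no overlap. Its log2 fold change was -1.37 untreated (adjusted P = 4.32e-08) and -1.49 with TGFβ1 (adjusted P = 1.05e-08). All 10 fibroblast markers passed the count filter, and their summed level had lower group medians in WWP2-/- than in WT, as did C4b and Serping1. It ran from 6503 to 20455 CPM in WT untreated (median 17141), 13384 to 31782 in WT with TGFβ1 (25426), 4422 to 13852 in WWP2-/- untreated (10106) and 5166 to 15096 in WWP2-/- with TGFβ1 (8895). Within groups the order differed by genotype. In both WT groups the library with the lowest sum also had the lowest C4b and Serping1. In both WWP2-/- groups the library with the lowest sum had the highest C4b and Serping1. In WWP2-/- with TGFβ1 replicate 3 the highest sum of its group stood beside 0.165 CPM of C4b and 2.16 CPM of Serping1, the lowest there. The part of this sum in the differences of the members was not tested. Acta2, smooth muscle actin and the usual marker of a myofibroblast, is among these fibroblast markers and had higher group medians in WWP2-/-. Its group medians were 2107 CPM in WWP2-/- and 1091 CPM in WT untreated, and 1643 and 1441.5 CPM with TGFβ1. It was at 39.7 CPM in WWP2-/- untreated replicate 3 and at 49.0 CPM in WWP2-/- with TGFβ1 replicate 1, against at least 945 CPM in every other library. The correlation of log2 CPM over genes between this pair of libraries was 0.998. Xist, the transcript of the inactive X chromosome, exceeded 1 CPM in 4, 4, 2 and 1 of the 5 libraries of WT untreated, WT with TGFβ1, WWP2-/- untreated and WWP2-/- with TGFβ1, that is in 8 of 10 WT and 3 of 10 WWP2-/- libraries. The WT libraries without it were untreated replicate 4 and TGFβ1 replicate 3. The summed level of the 10 macrophage markers ran from 141 to 4080 CPM in WT untreated, 68.4 to 438 in WT with TGFβ1, 93.8 to 1911 in WWP2-/- untreated and 86.6 to 3600 in WWP2-/- with TGFβ1. Endothelial markers summed to 6.21 to 178 CPM and tubular markers to 14.1 to 762 CPM, with 4 of 10 tubular markers below 1 CPM at their median (Epcam, Slc34a1, Umod and Aqp2), and lymphocyte markers summed to at most 0.438 CPM.

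All 9 members passed the count filter, and their levels differed widely when scaled for transcript length. In TPM, that is CPM scaled for transcript length, the median over all libraries was 342 for C1s1, 165 for Serping1, 85.9 for C1ra and 47.9 for C3. Cfp followed at 14.7 TPM, C3ar1 at 8.52, C2 at 7.37 and C4b at 5.34, and Cfb was lowest at 0.227. C1s1 and Serping1 together held most of the members' summed TPM in WT cells, with median shares of 44.3% and 34.5% untreated. With TGFβ1 the share of Serping1 ran from 27.3% to 41.7% in WT and from 4.45% to 16.3% in WWP2-/- cells, with no overlap. Untreated it ran from 13.3% to 37.1% and from 14.3% to 18.4%, and the groups overlapped. Such a share also depends on the other members. With TGFβ1, Cfp and C3ar1 had median shares of 0.857% and 0.252% in WT and 13.5% and 10.8% in WWP2-/- cells. In CPM, Serping1 itself overlapped between genotypes with TGFβ1, and so did its TPM ratio to C1s1. That ratio ran from 0.526 to 1.06 in WT and from 0.0773 to 0.963 in WWP2-/- cells. From the lowest to the highest library, levels in CPM spanned 5.94-fold for Cfp, 15.7-fold for C1s1, 205-fold for Serping1, 301-fold for C3, 431-fold for Cfb and 621-fold for C4b. WT with TGFβ1 replicate 2 was the highest library for C3, C4b, C1s1, C1ra, C2 and Serping1, and WWP2-/- with TGFβ1 replicate 3 was the lowest for C3, C4b, C1ra, C2 and Serping1.

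**Figure D1:**
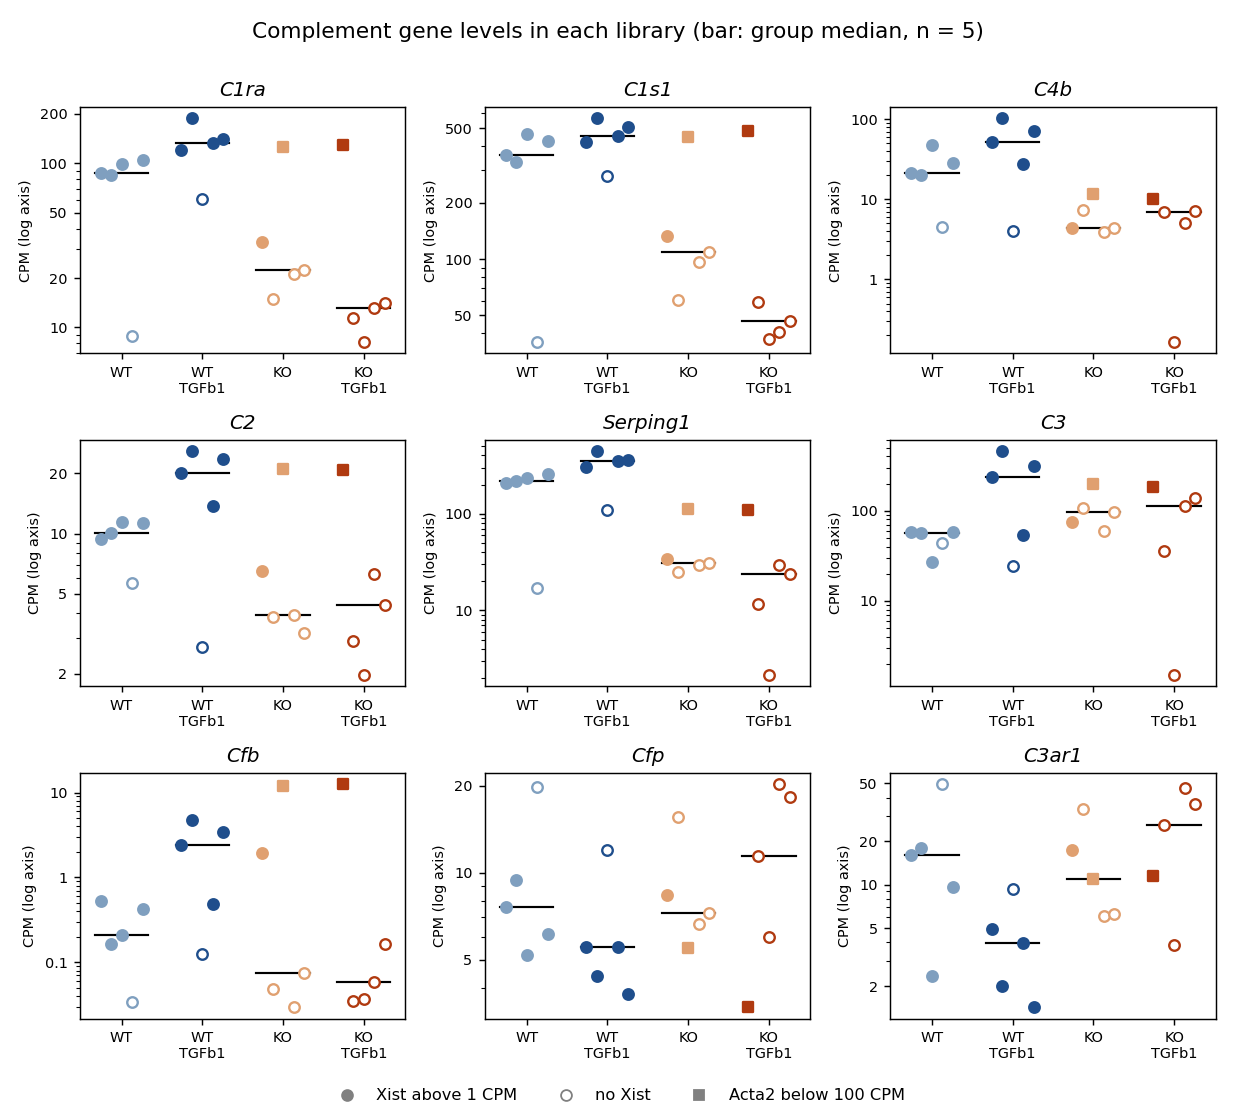
Level of each of the 9 complement genes in each of the 20 libraries, in CPM on a log axis, by group (KO is WWP2-/-). Horizontal bars are group medians (n = 5), filled points are libraries with Xist above 1 CPM, open points those without, and squares the 2 WWP2-/- libraries with Acta2 below 100 CPM. In the top row and for C2 and Serping1, both squares and most WT libraries sit above the remaining WWP2-/- libraries.

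C1ra and C1s1 encode the proteases that start the classical pathway. They lie 6901 bases apart on chromosome 6 (GRCm38), C1ra at chr6:124512405-124523443 on the plus strand and C1s1 at chr6:124530345-124542359 on the minus strand, so that their 3′ ends face each other and their promoters lie apart. Their RefSeq promoters (250 bases before to 50 after the start, GRCm38.p6) are shown because the pair tracked each other most closely of all members. C3 is shown beside them as the member whose ratio to C1s1 varied most of those compared. C1ra spans chr6:124512371-124512670 on the plus strand, C1s1 (the first of its 2 entries) chr6:124542310-124542609 and C3 chr17:57228087-57228386, both on the minus strand. Capitals mark matches to the motifs below.
C1ra: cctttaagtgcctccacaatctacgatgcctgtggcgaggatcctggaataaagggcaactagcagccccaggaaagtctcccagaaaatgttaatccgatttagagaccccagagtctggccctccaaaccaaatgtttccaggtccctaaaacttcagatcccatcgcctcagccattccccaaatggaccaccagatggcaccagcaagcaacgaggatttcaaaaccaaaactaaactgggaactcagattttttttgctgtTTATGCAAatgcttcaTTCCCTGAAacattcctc
C1s1: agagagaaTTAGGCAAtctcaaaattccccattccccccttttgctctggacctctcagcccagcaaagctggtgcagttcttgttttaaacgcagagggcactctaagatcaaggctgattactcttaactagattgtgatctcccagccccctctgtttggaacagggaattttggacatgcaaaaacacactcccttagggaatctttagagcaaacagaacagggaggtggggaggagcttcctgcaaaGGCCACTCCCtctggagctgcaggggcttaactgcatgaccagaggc
C3: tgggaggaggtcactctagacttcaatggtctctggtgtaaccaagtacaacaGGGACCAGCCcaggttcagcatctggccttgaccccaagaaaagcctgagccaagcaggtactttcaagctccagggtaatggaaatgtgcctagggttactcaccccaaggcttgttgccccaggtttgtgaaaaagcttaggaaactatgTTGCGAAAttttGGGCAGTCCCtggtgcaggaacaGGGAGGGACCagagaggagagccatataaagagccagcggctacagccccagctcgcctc
The letters searched on both strands were GAAA, any 2 bases and GAAA (ISRE), TTCNNNGAA (GAS), GGGA, any 4 bases and CC (kB), TTGCNNAA (C/EBP), TGANTCA (AP-1) and GTCTAGAC (SMAD), and no match in these members overlapped another. The C/EBP letters stood in all 3 sequences shown, and 10.8% of all 32851 promoters of this length held them. The other entry of C1s1, which is not shown, held its kB match and no C/EBP match. C3 had 3 kB matches and C1s1 had 1, against 20.7% of promoters with any, and C1ra had a GAS match, found in 8.3% of promoters. Of the other members, C3ar1 had an AP-1 match (7.81% of promoters) and Cfp had none of the motifs. No ISRE (3.44%) or SMAD (0.213%) letters were found in the 5 members with an entry, while C4b, C2, Cfb and Serping1 were not in the promoter table used here.

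C1s1 lay at 360, 330, 465, 36.0 and 428 CPM in the WT untreated replicates 1 to 5 and at 425, 564, 278, 455 and 506 CPM in WT with TGFβ1. It lay at 132, 60.7, 450, 96.6 and 109 CPM in WWP2-/- untreated and at 486, 58.8, 37.6, 40.8 and 46.7 CPM in WWP2-/- with TGFβ1. In each WWP2-/- group 4 libraries lay at or below 132 CPM and the Acta2-low library lay within the WT range. Among the WT libraries, untreated replicate 4, one of the pair without Xist, was low. C1ra followed C1s1, at 87.7, 85.2, 98.2, 8.85 and 105 CPM in WT untreated and 120, 187, 60.9, 133 and 141 in WT with TGFβ1. In WWP2-/- cells C1ra was at 33.2, 14.8, 125, 21.3 and 22.3 CPM untreated and at 129, 11.3, 8.15, 13.1 and 14.0 CPM with TGFβ1. The ratio of C1ra to C1s1 in TPM stayed between 0.203 and 0.348 over all 20 libraries, a 1.72-fold range, while C1s1 itself ranged 15.7-fold. By comparison the ratio of Serping1 to C1s1 ranged 13.7-fold and that of C3 to C1s1 72.6-fold.

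Neither protease passed the test between genotypes over all libraries. With TGFβ1 the log2 fold change (WWP2-/- minus WT) was -1.98 (SE 0.823, adjusted P = 0.146) for C1ra and -1.84 (SE 0.784, adjusted P = 0.156) for C1s1. Without the 2 Acta2-low libraries the same values were -3.65 (adjusted P = 0.00639) and -3.45 (adjusted P = 0.00645), past the threshold. Leaving out WWP2-/- with TGFβ1 replicate 1 alone gave -3.67 for C1ra and -3.47 for C1s1, both at adjusted P = 0.0126. Each was called in 1 of the 20 fits that left out 1 library, and that was this fit. With the level of Xist as a covariate both were also called lower, in a fit that kept this library. Fits of the libraries with or without Xist each had an arm of 1 library in this comparison, WWP2-/- with TGFβ1 replicate 1 among those with Xist and WT with TGFβ1 replicate 3 among those without. The lone library is there assumed to vary like the other groups, which supply the spread. With Xist the differences were -0.26 (adjusted P = 0.788) for C1ra and -0.09 (adjusted P = 0.927) for C1s1, and without Xist -2.39 (adjusted P = 0.0340) and -2.59 (adjusted P = 0.0465). These values set 1 library against a group and say little about the genotypes. Untreated, they were -0.90 (adjusted P = 0.617) and -1.01 (adjusted P = 0.549) over all libraries. The paralogues C1rb and C1s2, which share 34.5% and 7.90% of 100-base windows with C1ra and C1s1, stayed at or below 0.311 and 1.23 CPM, and reads from shared stretches may have been split or dropped in counting.

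C4b encodes the mouse C4 protein that C1s cleaves, and C2 the protease that joins its fragment. C4b lay at 21.2, 20.2, 48.1, 4.48 and 28.1 CPM in WT untreated and at 52.4, 102, 4.04, 27.9 and 71.2 CPM in WT with TGFβ1. It lay at 4.45, 7.36, 11.7, 3.93 and 4.37 CPM in WWP2-/- untreated and at 10.2, 6.86, 0.165, 5.11 and 7.19 CPM in WWP2-/- with TGFβ1. With TGFβ1, 4 of 5 WT libraries lay above every WWP2-/- library, and the fifth, replicate 3, which had no Xist, lay below 4 of the 5 WWP2-/- libraries. The lowest WWP2-/- library, replicate 3, stood at 0.165 CPM, with 9 counts. Untreated, 4 of 5 WT libraries also lay above every WWP2-/- library, and the difference was -2.05 (SE 0.804, adjusted P = 0.253).

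The C4b difference with TGFβ1 kept its sign in all 20 fits that left out 1 library, between -3.68 and -2.92, and passed in 15 of them. It was lost without WWP2-/- with TGFβ1 replicate 2, 4 or 5 (adjusted P = 0.0564, 0.0666 and 0.0591) and without WT with TGFβ1 replicate 2 or 5 (adjusted P = 0.0770 and 0.0642). With the level of Xist as a covariate it was -1.77 (adjusted P = 0.213), and in the libraries with Xist, with 1 WWP2-/- library with TGFβ1, -2.72 (adjusted P = 0.0751). In those lacking Xist it was 0.21 (adjusted P = 0.979), a change of direction that rests on the single WT library with TGFβ1 there, replicate 3 at 4.04 CPM. With the macrophage marker level as a covariate it was -2.36 (adjusted P = 0.191). C4a, a near copy that shares 16.5% of 100-base windows with C4b, lay between 0.818 and 2.24 CPM and differed between genotypes with TGFβ1 by 0.16 (adjusted P = 0.766). C4a was above C4b in TPM in 1 library, WWP2-/- with TGFβ1 replicate 3, where the ratio of C4b to C4a was 0.204.

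C2 lay close to C4b in level, at a median of 7.37 TPM beside 5.34, and below C1s1 and C1ra. Its CPM were 9.39, 10.04, 11.4, 5.68 and 11.3 in WT untreated and 19.99, 25.7, 2.74, 13.8 and 23.6 in WT with TGFβ1. In WWP2-/- they were 6.47, 3.84, 21.02, 3.92 and 3.21 untreated and 20.8, 2.91, 1.98, 6.30 and 4.43 with TGFβ1. The Acta2-low library with TGFβ1 lay within the range of WT with TGFβ1, and the untreated one lay above every untreated WT library. The other WWP2-/- libraries lay at 6.47 CPM or below. The difference between genotypes with TGFβ1 was -1.38 (SE 0.679, adjusted P = 0.216), and -2.35 (adjusted P = 0.0103) without the Acta2-low libraries. C2 and Cfb, which encode related proteases of the classical and the alternative pathway, lie 85 bases apart in the same direction on chromosome 17, with C2 at 7.37 TPM and Cfb at 0.227 TPM at the median.

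Serping1, the C1 inhibitor, was the second member past the test between genotypes with TGFβ1. It lay at 209, 220, 233, 17.1 and 257 CPM in WT untreated and at 301, 444, 109, 354 and 363 CPM in WT with TGFβ1. It lay at 33.9, 24.9, 112, 29.7 and 31.1 CPM in WWP2-/- untreated and at 110, 11.6, 2.16, 29.2 and 24.0 CPM in WWP2-/- with TGFβ1. Untreated, 4 of 5 WT libraries lay above every WWP2-/- library. With TGFβ1 the groups met at their edges, WT replicate 3 at 109 CPM and WWP2-/- replicate 1 at 110 CPM. Both Acta2-low libraries, within the WT range for C1s1, had less Serping1 than all WT libraries with Xist. Untreated, the difference between genotypes was -2.10 (SE 0.808, adjusted P = 0.246), and among libraries with Xist -1.79 (adjusted P = 0.0311). That fit held 2 untreated WWP2-/- libraries, replicate 1 and the Acta2-low replicate 3.

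With TGFβ1, Serping1 passed in 13 of 20 fits that left out 1 library, with differences between -4.49 and -3.004 and adjusted P up to 0.0704. The call was lost without WWP2-/- with TGFβ1 replicate 2, 4 or 5 (adjusted P = 0.0646, 0.0704 and 0.0695) and without WT with TGFβ1 replicate 1, 2, 4 or 5 (adjusted P = 0.0511, 0.0699, 0.0595 and 0.0629). The value was -2.31 (adjusted P = 0.0254) with Xist as a covariate and -4.48 (adjusted P = 0.00645) without the Acta2-low libraries. With the macrophage marker level as a covariate it was -2.25 (adjusted P = 0.149). It was -1.82 (adjusted P = 0.0645) in the libraries with Xist and -2.75 (adjusted P = 0.462) in those lacking it, each with 1 library in an arm. In both genotypes the TGFβ1 differences were close to their errors or smaller, 0.85 (SE 0.782, adjusted P = 0.923) in WT and -0.34 (SE 0.778) in WWP2-/-. That C4b and Serping1 passed between genotypes with TGFβ1 and not without it does not show that the difference changed with TGFβ1, since the interaction was -1.27 (SE 1.10, adjusted P = 0.916) for C4b and -1.19 (SE 1.10, adjusted P = 0.930) for Serping1.

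**Figure D2:**
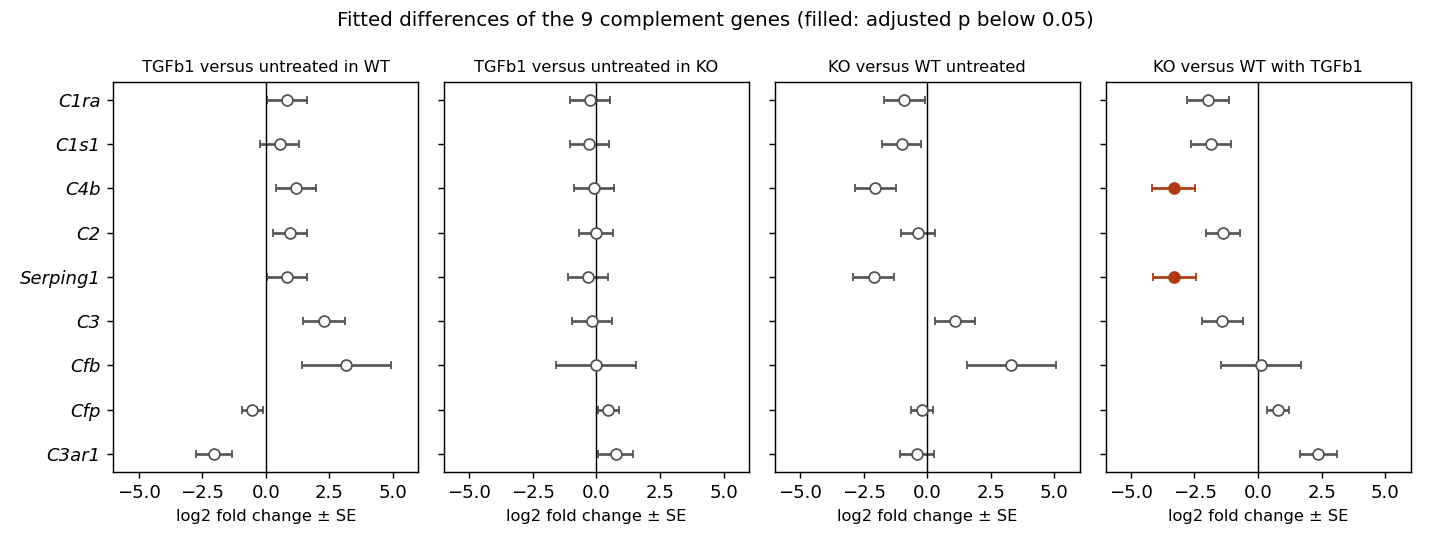
Fitted log2 fold change with its standard error for each of the 9 genes in 4 comparisons (edgeR, 20 libraries, KO is WWP2-/-), with filled points where the adjusted P was below 0.05. The filled points are C4b at -3.32 and Serping1 at -3.29 in the comparison of genotypes with TGFβ1.

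C3, the protein on which all pathways converge, had the largest fitted TGFβ1 difference of the members in WT cells after Cfb, without passing the test. It lay at 57.7, 57.1, 26.9, 43.5 and 58.1 CPM in WT untreated and at 235, 457, 24.5, 53.1 and 311 CPM in WT with TGFβ1. In WT with TGFβ1, 3 libraries lay above all untreated WT libraries and 2 lay within or below their range. The log2 fold change was 2.30 (SE 0.828, unadjusted P = 0.0123, adjusted P = 0.641), where none of the 20407 genes passed in edgeR, 1397 had an unadjusted P below 0.05, and DESeq2 called 27. Members had a median log2 fold change of 0.85 and all genes tested 0.016 in this comparison.

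In WWP2-/- cells C3 lay at 75.9, 108, 195, 60.2 and 97.9 CPM untreated and at 182, 35.5, 1.52, 112 and 137 CPM with TGFβ1. Every untreated WWP2-/- library was above every untreated WT library, the sole case of groups that did not overlap among the members in any of the 4 comparisons, and 2.82% of all genes had non-overlapping groups there. The fitted difference was 1.09 (SE 0.799, adjusted P = 0.536). The 0 of 9 members with separate groups in the other comparisons compare with 1.19% of genes for TGFβ1 in WT, 0.421% for TGFβ1 in WWP2-/- and 5.53% for genotype with TGFβ1. For C3 the genotypes overlapped with TGFβ1, and the difference was -1.40 (SE 0.805, adjusted P = 0.294). The TGFβ1 difference in WWP2-/- cells was -0.19 (SE 0.790), and the difference between both TGFβ1 responses, the interaction, was -2.49 (SE 1.13, unadjusted P = 0.0415, adjusted P = 0.682). No gene passed in the interaction test, where 1424 had an unadjusted P below 0.05 and DESeq2 called 10.

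Cfb, factor B, the protease of the alternative pathway, had 2 to 774 counts per library. It lay at 0.523, 0.163, 0.209, 0.0339 and 0.427 CPM in WT untreated and at 2.38, 4.79, 0.126, 0.487 and 3.39 CPM in WT with TGFβ1. In WWP2-/- it lay at 1.93, 0.0485, 11.9, 0.0294 and 0.0757 CPM untreated and at 12.7, 0.0353, 0.0366, 0.0578 and 0.163 CPM with TGFβ1. The 2 Acta2-low libraries were the highest of all 20, and no WWP2-/- library without Xist exceeded 0.163 CPM. The difference between genotypes with TGFβ1 moved with these libraries. It was 0.11 (SE 1.58, adjusted P = 0.979) over all libraries and -5.08 (adjusted P = 0.0220) without them. Its sign over all libraries was not resolved. The value was also below 0 without WT with TGFβ1 replicate 3 (-0.20) or replicate 4 (-0.10). Leaving out WWP2-/- with TGFβ1 replicate 1 alone gave -5.10 (adjusted P = 0.0574). Untreated it was 3.31 (SE 1.76, adjusted P = 0.384), and 4.01 (adjusted P = 0.00943) with Xist as a covariate, a fit that still held both. Without the Acta2-low libraries the untreated value was 0.81 (adjusted P = 0.748). In WT cells the TGFβ1 difference was 3.16 (SE 1.75, adjusted P = 0.812).

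Cfp and C3ar1 had fitted differences between genotypes with TGFβ1 that were above 0, unlike those of C1ra, C1s1, C4b, C2, Serping1 and C3. Cfp encodes properdin, which stabilises the enzyme of the alternative pathway, and lay at 7.60, 9.40, 5.19, 19.7 and 6.13 CPM in WT untreated and 5.51, 4.41, 12.02, 5.53 and 3.81 CPM in WT with TGFβ1. It lay at 8.36, 15.5, 5.49, 6.66 and 7.25 CPM in WWP2-/- untreated and 3.42, 11.5, 6.00, 20.3 and 18.3 CPM in WWP2-/- with TGFβ1. The groups overlapped throughout, with a difference of 0.79 (SE 0.425, adjusted P = 0.256) between genotypes with TGFβ1.

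C3ar1, the receptor for the C3a fragment, lay at 16.1, 17.8, 2.34, 49.7 and 9.71 CPM in WT untreated and 4.99, 2.02, 9.43, 3.97 and 1.42 CPM in WT with TGFβ1. It lay at 17.4, 33.4, 11.02, 6.08 and 6.30 CPM in WWP2-/- untreated and 11.5, 25.7, 3.83, 46.5 and 36.4 CPM in WWP2-/- with TGFβ1. With TGFβ1, 4 of 5 WWP2-/- libraries lay above all WT libraries. The difference of 2.38 (SE 0.716, adjusted P = 0.0556) missed the threshold in edgeR and passed it in DESeq2 (2.36, adjusted P = 0.00706), and it passed in 5 of 20 fits that left out 1 library. In WT cells the TGFβ1 difference was -2.03 (SE 0.707, unadjusted P = 0.0101, adjusted P = 0.641).

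C3ar1 kept close to the macrophage markers in most libraries, and Cfp did so less. C3ar1 was 1.22% to 3.72% of the summed CPM of the 10 macrophage markers in 18 libraries, with a median over all libraries of 1.81%, and 11.7% and 13.3% in the Acta2-low libraries. Cfp ran from 0.483% to 6.44% of that sum, a 13.3-fold range beside the 5.94-fold range of its own level. The macrophage covariate was the mean scaled log2 level of these markers, not their sum. With it the difference of C3ar1 between genotypes with TGFβ1 was 0.88 (adjusted P = 0.195) and that of Cfp -0.24 (adjusted P = 0.462). The part of macrophages in these differences was not tested beyond these values.

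**Figure D3:**
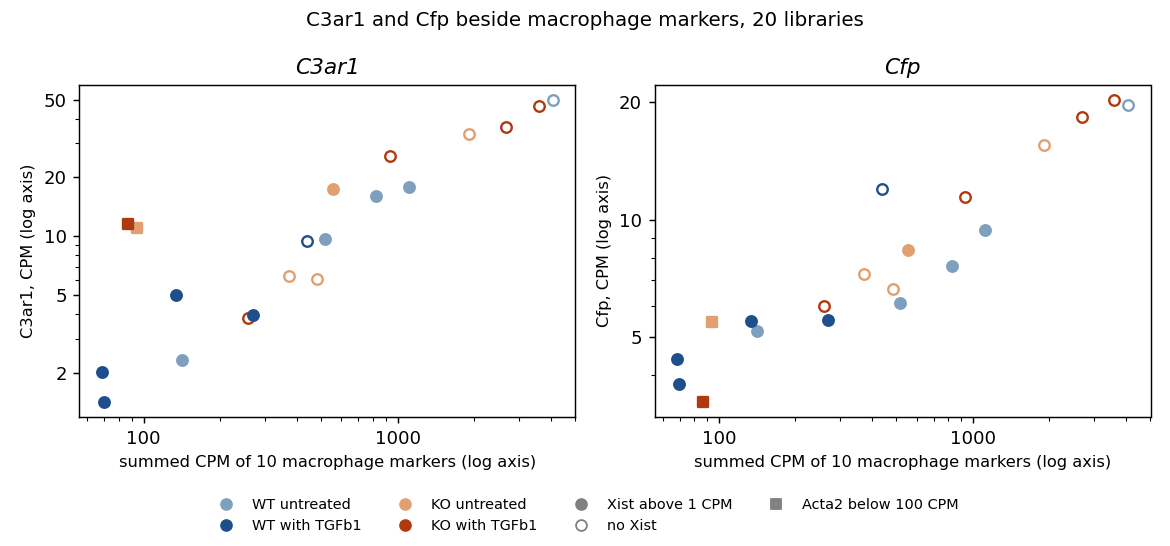
C3ar1 (left) and Cfp (right), in CPM, against the summed CPM of 10 macrophage markers in each of the 20 libraries, all on log axes. Colours give the groups (KO is WWP2-/-), open points the libraries without Xist and squares the 2 Acta2-low libraries, whose C3ar1 lay at 11.02 and 11.5 CPM beside marker sums of 93.8 and 86.6 CPM.

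Over the 9 members, the median log2 fold change between genotypes was -1.40 with TGFβ1 and -0.41 untreated, against 0.050 and 0.076 over all genes tested. With TGFβ1 5 of 9 members had an unadjusted P below 0.05, as did 5035 of the 20407 genes tested, and 2 members passed after adjustment. In WWP2-/- cells the median TGFβ1 difference of the members was -0.09 (0.0010 over all genes), no member had an unadjusted P below 0.05, and no gene passed in edgeR, with 713 genes at an unadjusted P below 0.05 and 49 called by DESeq2. The comparisons share groups, so these medians are not separate lines of evidence. The count of members called between genotypes with TGFβ1 changed with the libraries and covariates, as did the count over all genes (2 and 1238 over all libraries). Without both Acta2-low libraries 7 members (C1ra, C1s1, C4b, C2, Serping1 and Cfb lower, C3ar1 higher) and 3480 genes were called. With Xist as a covariate there were 3 members (C1ra, C1s1 and Serping1, all lower) and 779 genes, and with the macrophage marker level 0 members and 259 genes. The 11 libraries with Xist, of which 1 was WWP2-/- with TGFβ1, gave 0 members and 2012 genes. The 9 lacking it, of which 1 was WT with TGFβ1, gave 2 members (C1ra and C1s1) and 21 genes.

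**Figure D4:**
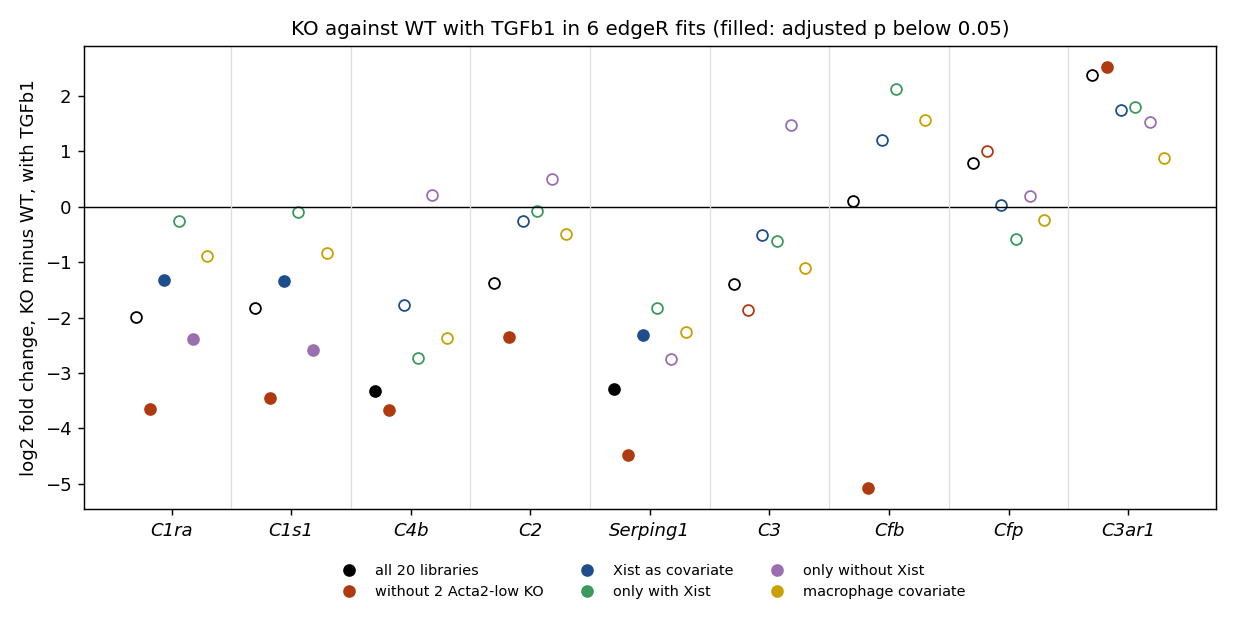
Log2 fold change between genotypes with TGFβ1 (KO, that is WWP2-/-, minus WT) of the 9 genes in 6 edgeR fits, filled where the adjusted P was below 0.05. C1ra, C1s1, C2 and Serping1 were lowest without the 2 Acta2-low libraries, where Cfb went from 0.11 (SE 1.58) to -5.08. C4b changed sign to 0.21 among libraries without Xist (1 WT library with TGFβ1), and Cfb was not tested in that last fit.

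The rest of the complement system was read from 5 lists of 48 genes, of which 34 passed the count filter. In the genotype comparison with TGFβ1, 1 of 34 passed, beside 6.07% of all genes tested, and none passed in any other comparison. It was Colec10, a collectin of the lectin pathway, lower in WWP2-/- (log2 fold change -2.71, adjusted P = 0.0347). Its counts were 1 to 18 in WT and 0 to 4 in WWP2-/- libraries, so that it entered the test through 7 WT libraries alone and is no support for a difference of the list. The call was lost with no filter (adjusted P = 0.0580), with only the groups compared (0.112), with the macrophage covariate (0.0916) and in 6 of 20 fits that left out 1 library. By role, the 12 tested recognition molecules and proteases had 6 values above 0 and 6 below in that comparison, the 5 fluid phase regulators 4 and 1, the 7 membrane regulators 6 and 1, and the 2 of the alternative and terminal pathway 1 and 1. The 8 tested receptors were all above 0, with a median of 1.62, none of them past the threshold. The list holds myeloid genes such as Itgam, Itgax and Itgb2, and the macrophage marker sum had medians of 134 CPM in WT with TGFβ1 and 929.9 CPM in WWP2-/- with TGFβ1, whose part in these values was not tested. Of the terminal pathway, C6, C7, C8a, C8b and C9 were below the filter.

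Some genes outside complement tracked single members over the 20 libraries, as Pearson's r of log2(CPM + 2). C4b was most like Pla1a (r = 0.979), Ptgfr (0.953) and Matn2 (0.952), and Serping1 was most like Irak3 (0.983), Snx33 (0.968) and Ptgis (0.954). Pla1a had group medians of 68.3, 118, 22.0 and 22.8 CPM in WT untreated, WT with TGFβ1, WWP2-/- untreated and WWP2-/- with TGFβ1, beside 21.2, 52.4, 4.45 and 6.86 CPM for C4b. C3 was most like Mapkapk2 (0.890), Nmi (0.849) and Zfp36l1 (0.848), and Cfb most like F830016B08Rik (0.988), Piwil4 (0.987) and Gm4951 (0.984). These correlations are descriptions over libraries that share the groups and the libraries that stood apart. Among the members themselves, r was highest for C1ra and C1s1 (0.991) and lowest for C1s1 and Cfp (-0.763).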

How the data were processed

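RNA of primary mouse renal myofibroblasts in 20 libraries was sequenced after poly-A selection on the NovaSeq platform. The authors mapped paired reads to GRCm38 with STAR and counted exon reads per gene with featureCounts, and the deposited table holds these raw counts, with no normalization. No strand setting is given, so overlapping genes cannot be told apart. Per the labels, libraries fell into 4 groups of 5, and the median total was 55863326 counts. Gene names came from GENCODE M21 (51633 of 51826 matched), promoters from RefSeq. CPM used total counts, and TPM the union of exons.

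The 20407 genes that reached 5 counts in 5 or more libraries were tested over all libraries with edgeR 4.0.16 (TMM, quasi-likelihood, Benjamini-Hochberg, threshold 0.05) in R 4.3.3, with DESeq2 1.42.0 as an alternative. On simulated data with 200 changed genes of 20019, for TGFβ1 against untreated in WT, the test recovered 122 with 3 false calls. The changes were all of a single size, up or down, and no simulated library stood apart. This recovery therefore does not carry over to smaller changes or to libraries that stand apart. Alternatives covered scaling, filters, covariates, single libraries and subsets by Xist or Acta2, the last chosen after seeing the data. Macrophage and other marker sums used lists of 6 or 10 genes. Named genes were the members, Wwp2, paralogues, wider-list genes past the threshold and, for C3, C4b, Cfb and Serping1, the 3 most similar genes with a mean of at least 1 CPM. One gene of the wider lists is not reported here and is left out of their counts. The members and lists were chosen with earlier results of these data known.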

Additional observations from a re-analysis of the deposited data

Results flagged for a closer look

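There were 36 sets of 5 libraries (9 genes in 4 groups). In 15 of them the highest or lowest library lay further from its neighbours than Dixon's critical ratio of 0.71 allows. Chance would flag about 1 in 20 sets of normally spread values. That rate is a rough guide here, since the ratio was taken on CPM, and the sets share libraries and members that moved together. Of the 15 flags, 10 were the 2 WWP2-/- libraries with low Acta2, each the highest of its group. In untreated replicate 3 these were C1s1 (449.8 CPM), C1ra (125.1), C2 (21.02), Cfb (11.94) and Serping1 (111.6), and in TGFβ1 replicate 1 C1s1 (486.0), C1ra (128.7), C2 (20.80), Cfb (12.66) and Serping1 (110.2). WT untreated replicate 4, without Xist, was low for C1ra (8.853 CPM) and Serping1 (17.13) and high for Cfp (19.72). Cfp was also high in WT with TGFβ1 replicate 3 (12.02), without Xist, and in WWP2-/- untreated replicate 2 (15.53).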

How the results depend on the processing

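The members' counts of calls stayed at 0 of 9 for TGFβ1 in either genotype and for the interaction under every alternative. For genotype with TGFβ1, 2 members were called, and other scalings or no filter gave 2, DESeq2 3 and single libraries left out 0 to 6. The count was 1 with at least 10 counts in every library (C4b not testable) or with presence of Xist as a fixed term, 0 with only the groups compared (C4b adjusted P = 0.0913, Serping1 0.0746), with the macrophage covariate, among libraries with Xist or at a threshold of 0.01, and 7 without both Acta2-low libraries. Untreated it was 1 with the Xist covariate and 2 among libraries with Xist, where the WWP2-/- group had 2 libraries. Cfb was 0.11 (SE 1.58) over all libraries and -5.08 without the Acta2-low libraries. C4b was -3.32 over all libraries and 0.21 among libraries without Xist, where WT with TGFβ1 had 1 library. Why these libraries stood apart was not tested.

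Counts over all genes moved further. For genotype with TGFβ1 (1238) they were 790 with no filter, 2672 by DESeq2, 569 with only the groups compared, 779 and 259 with the Xist and macrophage covariates, 101 at 0.01, 3480 without both Acta2-low libraries, 2012 and 21 with only libraries with or without Xist, 331 with Xist as a fixed term, and 453 to 2730 with 1 library left out. Untreated (148) they were 743 by DESeq2, 1 with only the groups compared or at 0.01, 88 and 701 with the covariates, 271, 1663, 0 and 21 in the same order of subsets and fixed term, and 1 to 743 with 1 library left out. For TGFβ1 in WT (0) they were 27 by DESeq2, 1 and 4 with the covariates, in WWP2-/- (0) 49 by DESeq2 and 0 to 63 with 1 library left out, and for the interaction (0) 10 by DESeq2 and 1 with the macrophage covariate.

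Replicate numbers did not pair the samples: of 30 same-numbered pairs, 15 had deviations that correlated above 0.1 (-0.584 to 0.537), and 3 of 20 libraries matched their own number best. Under other numbers, untreated and TGFβ1 libraries correlated at 0.950 (WWP2-/- replicates 3 and 1), 0.887 (2 and 5), 0.823 (2 and 4) and 0.759 (WT 4 and 3). Others of this kind ran down to -0.709 (WWP2-/- 2 and 1). The labels do not say whether such libraries share a mouse, and no fit used these matches. The TGFβ1 and interaction tests treated all libraries as separate. With the replicate block, genotype with TGFβ1 gave 670 genes and 0 members (C4b adjusted P = 0.0665, Serping1 0.0510), and 1 gene untreated.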
